A study of Homo sapiens with 12 samples.

Results

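The genes described here encode the proteins of the cytosolic ribosome. They are the 77 genes whose symbol is RPL or RPS followed by a number and, where present, the letter A or X, together with RPLP0, RPLP1, RPLP2 and RPSA. They were taken by name, with no measured value used, from 31554 human genes with a RefSeq span on GRCh38. The symbols divide into 46 genes of the large (60S) subunit and 31 of the small (40S) subunit. The spans are 1335 to 27723 bases long (median 5011) and lie on 21 chromosomes. All 77 passed the filter on low counts.

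The samples were K562 cells, an established human erythroleukaemia line, at passages 3-5. For the 8 RNA libraries 4-thiouridine (4sU), an analog of uridine that enters RNA made during the pulse, was given at 500 µM for 5 min before harvest. All 4 RNA groups share that label, so no RNA group is unlabelled. TT-Seq is labelled RNA sheared by sonication before it was purified, and 4sU-Seq is labelled RNA purified without shearing. The Total RNA-Frag-Seq group (below, sheared total RNA) and the Total RNA-Seq group (below, unsheared total RNA) were taken without purification. In the 2 ChIP groups the cells were crosslinked for 7.5 min and RNA polymerase II (Pol II) was precipitated. The N20 antibody binds the polymerase and the S2P antibody binds its C-terminal domain phosphorylated on serine-2, a form typical of elongating polymerase. Each of the 6 groups has 2 libraries. The design text calls the RNA libraries biological duplicates. Nothing says that the ChIP libraries came from separate cultures, so their p-values measure only the spread between libraries, which may be technical.

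Ribosomal protein mRNAs are among the most abundant and long-lived mRNAs of a dividing cell, and most of their products are present once in each ribosome, with RPLP1 and RPLP2 in more copies. Many of these mRNAs begin with a C and an unbroken run of pyrimidines, the 5′ terminal oligopyrimidine (TOP) tract, through which mTOR signalling controls their translation. Their genes are short, are split by introns, often host small nucleolar RNAs (snoRNAs), and have left many processed pseudogenes in the genome.

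Depth, in M (1e6) binned counts per library, was 68.9 and 71.3 for TT-Seq, 54.3 and 47.1 for 4sU-Seq, 43.1 and 33.3 for sheared total RNA and 30.4 and 25.9 for unsheared total RNA. The S2P ChIP libraries had 73.7 and 34.5 M and the N20 ChIP libraries 12.6 and 23.3 M. Of 16 K562 markers in the table, 15 reached 1 CPM (counts per 1e6 binned counts) in every RNA library, with a summed level of 1260 to 1380 CPM. The summed levels of marker lists for other cells were 4.64 to 8.29 CPM for T cells, 2.81 to 4.54 for B cells, 13.7 to 26.7 for myeloid cells, 77.3 to 185 for epithelial cells and 0.0739 to 0.249 for fibroblasts.

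A promoter entry in RefSeq (GRCh38.p14) was found for 62 of the 77 genes. Among these, 46 genes (74.2%) had an annotated start at which the first transcribed base was a C that opened a run of at least 5 pyrimidines. The same holds for 988 of 15842 coding genes with an entry (6.24%), for 11 of 27 translation factors (40.7%), for 5 of 38 ribosome biogenesis genes (13.2%) and for 6 of 69 mitochondrial ribosomal protein genes (8.7%). The runs in the ribosomal protein genes were 5 to 19 bases long, with a median of 8. The sequences below are shown because this start is what most of these genes share and the rule did not use. Each line runs 5′ to 3′ on the gene's strand from 30 bases before the annotated start to 20 bases into the transcript, and the capitals mark the pyrimidine run that begins at the first transcribed base.
RPS6, chr9:19380217-19380266, minus strand: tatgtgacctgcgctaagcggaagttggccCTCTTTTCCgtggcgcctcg
RPS12, chr6:132814539-132814588, plus strand: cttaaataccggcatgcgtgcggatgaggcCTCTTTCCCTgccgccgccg
RPS18, chr6:33272045-33272094, plus strand: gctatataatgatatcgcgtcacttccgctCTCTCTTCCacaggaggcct
RPLP0, chr12:120201092-120201141, minus strand: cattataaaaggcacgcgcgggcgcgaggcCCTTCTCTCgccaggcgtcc
RPLP1, chr15:69452788-69452837, plus strand: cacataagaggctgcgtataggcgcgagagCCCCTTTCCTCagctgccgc
RPLP2, chr11:809937-809986, plus strand: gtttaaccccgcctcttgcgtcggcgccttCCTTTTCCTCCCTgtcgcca
RPL29, chr3:51995876-51995925, minus strand: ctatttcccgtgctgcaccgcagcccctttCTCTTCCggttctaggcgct
RPL24, chr3:101686699-101686748, minus strand: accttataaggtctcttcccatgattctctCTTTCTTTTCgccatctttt
RPL39, chrX:119791611-119791660, minus strand: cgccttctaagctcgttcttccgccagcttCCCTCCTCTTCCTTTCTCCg
RPL10, chrX:154398347-154398396, plus strand: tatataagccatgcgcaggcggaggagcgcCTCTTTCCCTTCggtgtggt

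The 16 genes with an entry and no such start are RPL3, RPL4, RPL6, RPL9, RPL10A, RPL15, RPL17, RPL19, RPL27, RPL32, RPS4X, RPS7, RPS15, RPS26, RPS28 and RPS29. The list rests on the exact annotated first base and on a fixed shortest run, so it does not show that these genes lack a pyrimidine tract. In RPL3 the first base is a C, but the run it opens is too short to count. In RPL19 the annotated start is a T that lies inside a pyrimidine run. Of the 16 genes, 3 are printed for comparison, all in lower case.
RPS26, chr12:56041888-56041937, plus strand: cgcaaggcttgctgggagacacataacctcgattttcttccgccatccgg
RPS4X, chrX:72277229-72277278, minus strand: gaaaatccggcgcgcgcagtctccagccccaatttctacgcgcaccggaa
RPL3, chr22:39319604-39319653, minus strand: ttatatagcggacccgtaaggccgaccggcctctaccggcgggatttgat

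In the 300 bases from 250 before to 50 after an annotated start, the letters CCGGAAG (the core bound by ETS family factors) were present on either strand in 22 of the 62 genes (35.5%) against 16.5% of coding genes. TATAAA was present in 5 genes (8.06%) against 12.4%, GGGCGG in 36 (58.1%) against 64.3% and CCAAT in 22 (35.5%) against 42.1%. Matches of the 4 motifs can overlap each other by a few letters, and a match of letters is not a binding site.

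Summed over all 77 spans, ribosomal protein genes took 0.566% and 0.535% of the counts in the TT-Seq libraries. The share was 0.967% and 1.04% in 4sU-Seq, 1.14% and 0.928% in sheared total RNA and 1.33% and 1.32% in unsheared total RNA. Both TT-Seq libraries lay below every other RNA library, and both unsheared total RNA libraries lay above every other one. For TT-Seq against sheared total RNA the mean shares were 0.55% ± 0.0224 and 1.03% ± 0.146 (SD, n = 2 each), and the exact two-sided permutation test gave p = 0.33, the smallest value that 2 libraries against 2 allow. The ChIP libraries held 0.202% and 0.174% of their counts in these spans for S2P and 0.126% and 0.12% for N20. Each value is a share of its own library, so a lower share cannot be told apart from more RNA of other genes, and in bulk samples fewer cells and less RNA per cell cannot be told apart.

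The first comparison sets newly made RNA against all RNA after the same shearing (TT-Seq against sheared total RNA). Of the 77 genes, 54 were lower and 8 higher in TT-Seq by edgeR's quasi-likelihood test at an adjusted p under 0.05 (Benjamini-Hochberg over all 20073 genes tested), and 15 did not pass. Among all genes tested 33.9% were lower and 33% higher. The median log2 fold change of the ribosomal protein genes was -0.64, against -0.02 over all genes tested. Coding genes of the same range of length were also mostly lower (56.9% lower and 17.1% higher, median -0.47). The large subunit had 31 lower and 6 higher of 46 (median -0.62) and the small subunit 23 lower and 2 higher of 31 (median -0.71).

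**Figure D1:**
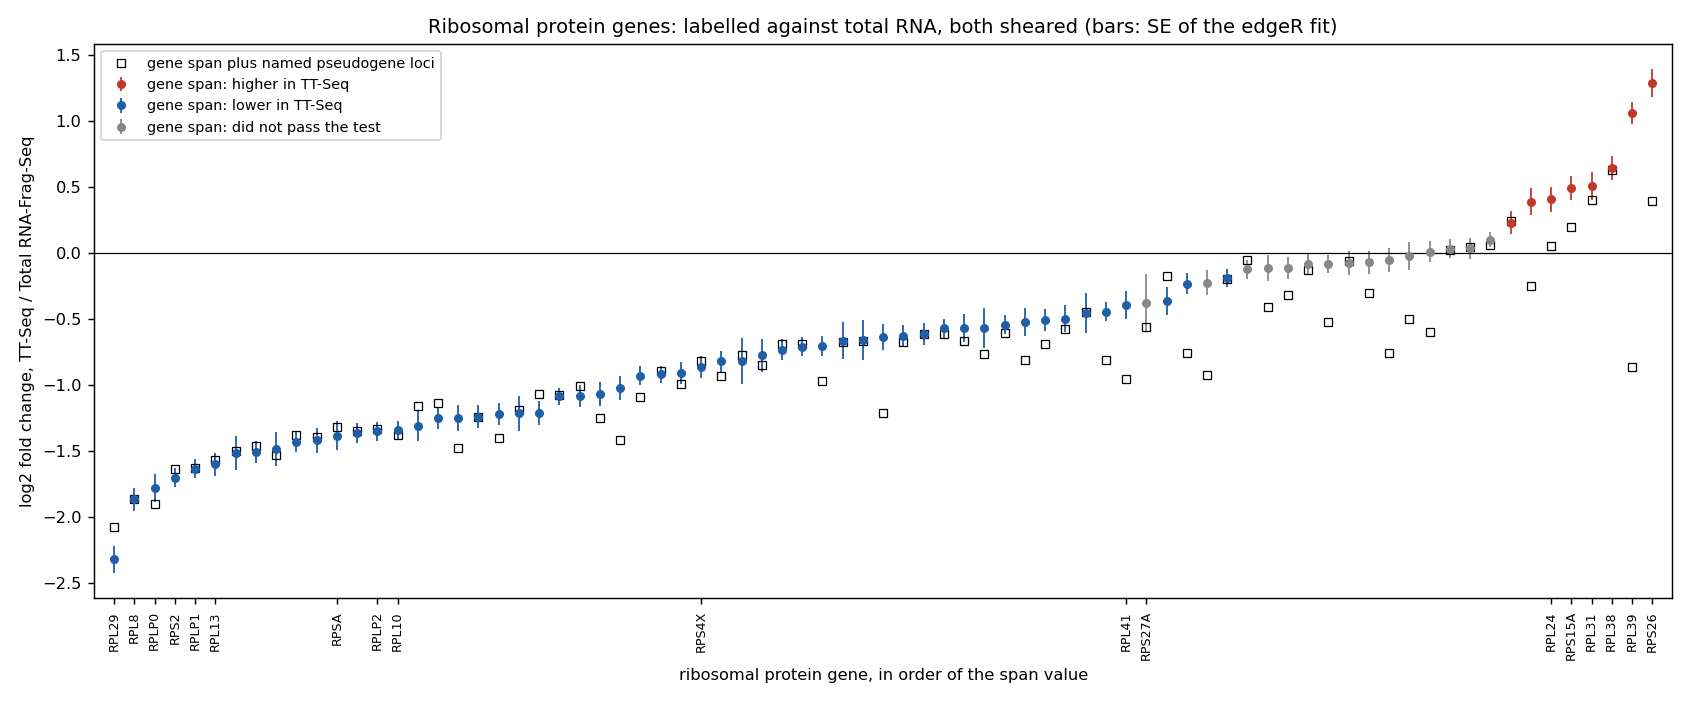
Log2 fold change of TT-Seq against sheared total RNA (vertical axis) for each of the 77 ribosomal protein genes (horizontal axis, ordered by value); filled points are gene spans with the SE of the edgeR fit, coloured by call, and open squares add the counts at pseudogenes named after the gene. The 6 lowest, the 6 highest and 9 set genes are labelled. The span values run from -2.32 (RPL29) to 1.29 (RPS26), and the open square of RPL39 lies at -0.86 while its filled point lies at 1.06.

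Among the genes lower in TT-Seq, RPL29, a small protein of the large subunit (chr3:51993522-51995895), was at the low end. RPL29 stood at 45.4 and 50.1 CPM in TT-Seq and at 248 and 230 CPM in sheared total RNA, with 170 and 133 CPM in 4sU-Seq and 279 and 305 CPM in unsheared total RNA. The TT-Seq values lay below all 6 others, and the log2 fold change against sheared total RNA was -2.32 (SE 0.11, edgeR adjusted p = 5.12e-09). RPL8, which lies near the peptidyl transferase centre, followed with 61.1 and 62.1 CPM in TT-Seq against 234 and 215 CPM (log2 fold change -1.87, SE 0.09). RPS2, which lines the entry of the mRNA channel, had 149 and 153 CPM in TT-Seq against 520 and 462 CPM (-1.70, SE 0.07). RPL13 had 120 and 131 CPM against 413 and 350 CPM (-1.60, SE 0.09). In each of these genes the groups did not overlap.

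The P stalk, the lateral arm of the large subunit that recruits translation factors, was lower in TT-Seq in all of its 3 genes. RPLP0, its base, had 100.6 and 99.8 CPM in TT-Seq and 389 and 299 CPM in sheared total RNA (log2 fold change -1.78, SE 0.11, edgeR adjusted p = 7.75e-08). RPLP1 had 69.7 and 71.9 CPM against 238 and 202 CPM (-1.64, SE 0.07), and RPLP2 had 59.6 and 56.2 CPM against 159 and 137 CPM (-1.35, SE 0.07). All of these values are lower in TT-Seq than in either sheared total library, and the 3 printed promoters of the stalk genes each open with a pyrimidine run of 9 to 13 bases.

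RPSA, the 40S protein also known as the laminin receptor precursor, had 71.8 and 68.4 CPM in TT-Seq and 208 and 158 CPM in sheared total RNA (log2 fold change -1.39, SE 0.11, edgeR adjusted p = 9.21e-07). RPL10, which is added late in the maturation of the 60S subunit, had 122 and 134 CPM against 347 and 302 CPM (-1.34, SE 0.07). RPS4X, the X-linked copy of the S4 gene, had 57.8 and 54.5 CPM against 113 and 91.4 CPM (-0.86, SE 0.08). In these genes too TT-Seq lay below total RNA without overlap. RPL41, which encodes the shortest ribosomal protein, had 24.3 and 20.3 CPM against 31.7 and 26.8 CPM (-0.40, SE 0.11, edgeR adjusted p = 0.00441); without TT-Seq replicate 2 its adjusted p was 0.0705 and without sheared total RNA replicate 1 it was 0.0752. RPS27A, made as a fusion to ubiquitin, had 53.1 and 37.5 CPM against 70.7 and 46.7 CPM. Its groups overlapped and it did not pass the test (-0.38, SE 0.22, edgeR adjusted p = 0.167). Without TT-Seq replicate 1 it did (-0.65, adjusted p = 0.019), as it did without sheared total RNA replicate 2 (-0.64, adjusted p = 0.0206).

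RPS26, which sits near the mRNA exit channel, had the highest value over gene spans. It stood at 26.7 and 24.6 CPM in TT-Seq and 24.2 and 30 CPM in 4sU-Seq, against 10.6 and 10.5 CPM in sheared total RNA and 11.2 and 12 CPM in unsheared total RNA. Both purified groups lay above both total groups (log2 fold change of TT-Seq against sheared total RNA 1.29, SE 0.11, edgeR adjusted p = 4.85e-08). RPL39, which lines the exit tunnel for the growing peptide, stood at 28.8 and 28.8 CPM in TT-Seq against 14.6 and 13 CPM (1.06, SE 0.08). The call for RPL39 ended when bins that only touch the span at its ends were added (0.03, adjusted p = 0.748). RPL38 (0.64, SE 0.09), RPL31 (0.51, SE 0.11), RPS15A (0.49, SE 0.09) and RPL24 (0.40, SE 0.10) were the next higher in TT-Seq. RPL24 had 60.5 and 56.6 CPM in TT-Seq, 48.6 and 39.6 CPM in sheared total RNA and 54.8 and 55.8 CPM in unsheared total RNA, so that its TT-Seq values exceeded both total groups by a small margin.

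The values of several genes moved when counts at pseudogenes were added. The annotation holds 1966 pseudogenes named after the 77 genes, from 4 to 137 per gene (median 17, with RPL21 at 137). Summed over all genes, these pseudogenes held 21.1% of the counts of genes and pseudogenes together in TT-Seq, 23.8% in 4sU-Seq, 24% in sheared total RNA and 24.2% in unsheared total RNA. The pseudogenes held more counts than the gene itself for 7 genes in TT-Seq, for 14 in 4sU-Seq and for 13 in either total group. Pseudogene counts were summed over both strands and every bin that overlaps the pseudogene, while gene spans used only the gene's strand and bin centres. Counts of other genes at the pseudogenes were not removed, so these shares can include RNA that is not of the ribosomal protein family. The assignment of reads that match several places is a step not given in the sources used here. The split between a gene and its copies is therefore uncertain.

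At RPL39, the span held 1031 counts and its 40 pseudogenes 6767 counts over both sheared total RNA libraries, against 3848 and 3714 counts in TT-Seq. The pseudogene part was thus 86.8% in sheared total RNA and 49.1% in TT-Seq. With these counts added, RPL39 was lower in TT-Seq (log2 fold change -0.86, SE 0.13, edgeR adjusted p = 0.000208), the reverse of its span. At RPS26, the pseudogene part was 76.2% in sheared total RNA and 55.6% in TT-Seq. With these counts added RPS26 was still higher in TT-Seq, at 0.39 (SE 0.07, edgeR adjusted p = 0.00018), and no longer the highest, below RPL38 (0.63) and RPL31 (0.40). At RPL36A, named here after its values were seen, it was 68.2% and 50.8%, and this gene also turned from higher to lower. RPL24 no longer passed (0.05, edgeR adjusted p = 0.611), and RPS27A became lower (-0.57, edgeR adjusted p = 0.00292). With pseudogenes counted, 5 of the 77 genes were higher and 64 lower in TT-Seq, with a median of -0.81. Of the 54 genes lower by their span, 53 remained lower, and of the 8 higher, 5 remained higher.

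Other genes of the translation machinery were taken from 4 lists. Of 35 translation factors 23 were lower and 7 higher in TT-Seq than in sheared total RNA (median -0.59), from EEF2, the translocation factor (-2.69), and EIF3I (-2.32) to EIF4E, the cap-binding factor (0.71), and EIF5B (0.83). Of 45 ribosome biogenesis genes 24 were lower and 14 higher (median -0.36), from NHP2 (-1.81) and NOLC1 (-1.63) to NOP58 (0.95) and RIOK2 (1.16). Of 77 mitochondrial ribosomal protein genes 45 were lower and 23 higher (median -0.46), from MRPL28 (-2.09) and MRPS34 (-1.94) to MRPL47 (1.29) and MRPL13 (1.35). Of 10 ribosomal proteins and paralogs outside the naming rule that were tested, 4 were lower and 2 higher; FAU (-1.36), a fusion of a ribosomal protein with a ubiquitin-like protein, was among the lower genes, and RPL3L (0.76, which did not pass the test) and RPL22L1 (1.56) were highest.

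The second comparison sets purified against total RNA without shearing (4sU-Seq against unsheared total RNA). Here 47 of the 77 genes were lower and 5 higher in 4sU-Seq by the same test, with 27.8% of all genes tested lower and 28.2% higher. Among coding genes of the same range of length 47.5% were lower and 10.4% higher. Of 35 translation factors 24 were lower and 2 higher (median -0.61). Of 45 ribosome biogenesis genes 27 were lower and 5 higher (median -0.33). Of 77 mitochondrial ribosomal protein genes 33 were lower and 10 higher (median -0.15). Of the 10 tested genes outside the naming rule 3 were lower and 4 higher (median 0.275). The median log2 fold change of the ribosomal protein genes was -0.29, against 0.02 over all genes tested and -0.27 in coding genes of the same range of length. The count of lower genes was 30 without 4sU-Seq replicate 1. RPL29 was again lowest (-0.95, SE 0.10), followed by RPL14 (-0.79), RPL3, which lies near the peptidyl transferase centre (-0.79), RPL8 (-0.72), RPSA (-0.69) and RPLP1 (-0.68). RPL3 had 85.3 and 94.8 CPM in 4sU-Seq and 161 and 150 CPM in unsheared total RNA, with no overlap. RPS26 was highest (1.23, SE 0.11), followed by RPL31 (0.50), RPL39 (0.43), RPS27 (0.24) and RPS15 (0.19), all higher by the test; RPL36A, the sixth, did not pass (0.12, edgeR adjusted p = 0.334). The call for RPS15 ended without 4sU-Seq replicate 1 (adjusted p = 0.195) and without unsheared total RNA replicate 1 (0.413), that for RPS27 without unsheared total RNA replicate 1 (0.135) or 2 (0.0952), and both ended by DESeq2's Wald test (0.0818 and 0.0732) and with pseudogenes counted (0.0684 and 0.649). For RPS15 it also ended with DESeq2 size factors (0.0652), with every bin that overlaps the span (0.16) and in a fit of the 4 compared libraries alone (0.0576). For RPL39 the sign turned with every bin that overlaps the span (-0.07, adjusted p = 0.535) and with pseudogenes counted (-0.27, adjusted p = 0.105). With pseudogenes counted RPS26 fell to 0.34 (SE 0.07), below RPL31 (0.50), and in all 52 genes were lower and 2 higher.

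The third comparison sets sheared against unsheared labelled RNA (TT-Seq against 4sU-Seq). In TT-Seq, 57 genes were lower and 3 higher, with 28.8% of all genes tested lower and 28.2% higher. The median was -0.57, against -0.03 over all genes tested. In coding genes of the same range of length it was -0.35, with 50% lower and 16.4% higher. The median was -0.06 over the 35 translation factors (14 lower, 9 higher) and 0.07 over the 45 ribosome biogenesis genes (16 lower, 16 higher). It was -0.28 over the 77 mitochondrial ribosomal protein genes (42 lower, 25 higher). Over the 10 tested ribosomal proteins and paralogs outside the naming rule it was -0.22 (5 lower, 2 higher). RPL29 (-1.67, SE 0.10), RPL10 (-1.58, SE 0.07) and RPS15, of the head of the small subunit (-1.56, SE 0.07), were lowest. RPL10 had 382 and 384 CPM in 4sU-Seq, 370 and 382 CPM in unsheared total RNA and 347 and 302 CPM in sheared total RNA, against 122 and 134 CPM in TT-Seq, so the TT-Seq libraries alone stood low. RPL39 (0.44), RPS15A (0.33) and RPL37 (0.28) were the 3 higher genes, and RPL39 turned lower with pseudogenes counted (-0.70, edgeR adjusted p = 0.00109). With every bin that overlaps the span RPL39 stood at -0.08, and RPS15A no longer passed with pseudogenes counted (0.08, adjusted p = 0.347) or with scaling by total counts alone (0.22, adjusted p = 0.101).

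Shearing of total RNA alone gave smaller differences. Log2 fold changes ran from -0.45 to -0.04 (median -0.23), so all 77 were negative. Of these, 34 passed the test as lower, with 10.4% of all genes tested lower and 17.5% higher. Coding genes of the same range of length had a median of -0.17, with 19.4% lower and 1.47% higher. None of the 77 ribosomal protein genes was higher by edgeR, at an unadjusted p under 0.05 that count was also 0, and DESeq2 called 0. The number of lower genes rested on single libraries. It was 71 without sheared total RNA replicate 1, 10 without sheared total RNA replicate 2, and 16 or 15 without unsheared total RNA replicate 1 or 2. Scaling by total counts alone gave 59 lower genes. RPS15 (-0.44) and RPS28 (-0.41) were among the lowest, and RPL22 (-0.04), RPLP0 (-0.05) and RPL35A (-0.11), none of which passed, were nearest to 0; without sheared total RNA replicate 1 these 3 passed as lower.

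The difference between the purification effects with and without shearing was tested as an interaction. It was negative, meaning a lower ratio of labelled to total RNA with shearing than without, in 35 genes and positive in 6, with 23.1% of all genes tested negative and 17.8% positive. The median was -0.35, against -0.03 over all genes tested. Coding genes of the same range of length had a median of -0.18, with 32.7% negative and 14.5% positive. RPL29 (-1.38, SE 0.14), RPL10 (-1.37, SE 0.10) and RPLP0 (-1.30, SE 0.15) were lowest. RPL39 (0.63, SE 0.12), RPS15A (0.54, SE 0.13) and RPL38 (0.52, SE 0.13) were highest. For RPL39 the call ended with every bin that overlaps the span (0.10, adjusted p = 0.547) and the sign turned with pseudogenes counted (-0.60). Without sheared total RNA replicate 1 the positive count was 14 and the median -0.16.

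Counts along the genes differed between the groups as well. For each gene of at least 8 bins, at most 30000 bases and at least 500 counts in every RNA library, the bins of 200 bases were ranked within each library and the share of counts in the fullest 25% of bins was taken. An even spread would give about 25%. In the 71 ribosomal protein genes that qualified, the median share was 68% and 65.1% in TT-Seq, 81.1% and 81.3% in 4sU-Seq, 87.9% and 85.1% in sheared total RNA and 86.6% and 87% in unsheared total RNA. Both TT-Seq values lay below both sheared total RNA values in 69 of the 71 genes (97.2%), against 83.4% of 3017 other coding genes. The median difference was -19.6 percentage points, against -12.6 in the other coding genes. In every library the ribosomal protein genes had a higher median share than the other coding genes, 68% against 58.8% in TT-Seq replicate 1 and 87.9% against 72.8% in sheared total RNA replicate 1.

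**Figure D2:**
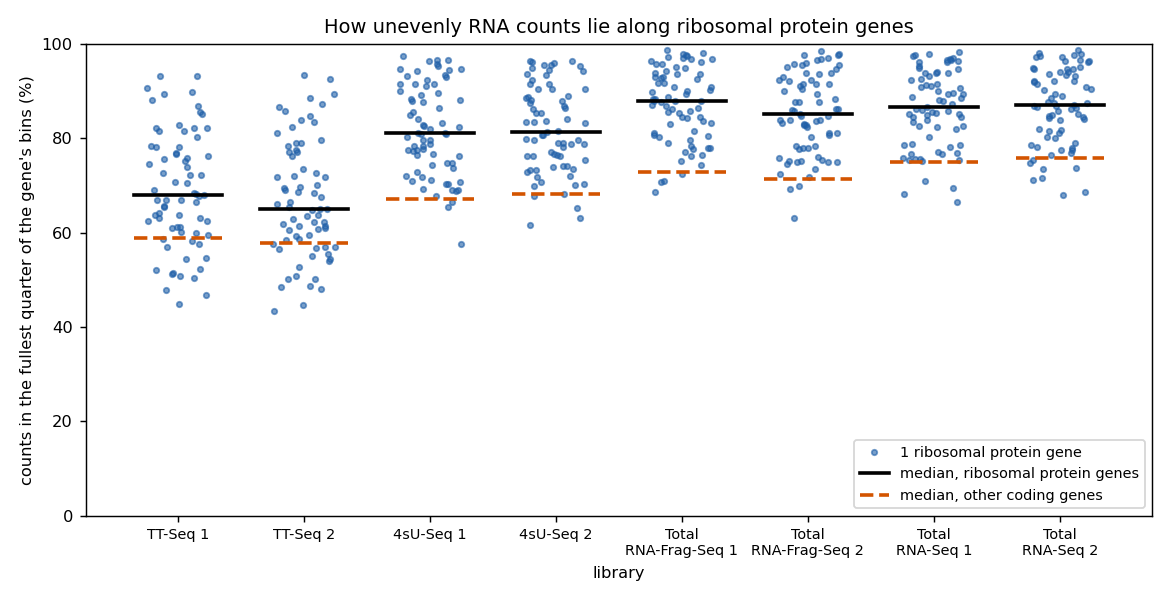
Share of a gene's counts in the fullest 25% of its 200-base bins (vertical axis, percent) by RNA library (horizontal axis); each point is 1 of 71 ribosomal protein genes, black lines are their medians and dashed orange lines are the medians of 3017 other coding genes. The black lines stand at 68% and 65.1% in TT-Seq and between 81.1% and 87.9% in the other 6 libraries.

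RPL24 had the widest gap. Its fullest 25% of bins held 44.8% and 44.7% of counts in TT-Seq, 70.9% and 73.5% in 4sU-Seq, 87% and 82.5% in sheared total RNA and 82.7% and 86.7% in unsheared total RNA. RPL35A (54.3% in TT-Seq against 86.5% in sheared total RNA, as means), RPS19, a gene mutated in Diamond-Blackfan anaemia (52.4% against 84.1%), and RPL11, which binds 5S rRNA (47.7% against 79.2%), came next. RPS2 went the other way, with 78.1% and 73.5% in TT-Seq, 70.7% and 71.7% in sheared total RNA and 66.5% and 67.9% in unsheared total RNA. RPL31 overlapped, with 82.2% and 81.2% in TT-Seq and 83.1% and 78.3% in sheared total RNA. These genes were picked by the size of the gap, as a description. Exon positions were not used here, so the full bins were not assigned to exons or introns. The 28 genes that host annotated snoRNAs (59 in all) had a median log2 fold change of -0.65 in TT-Seq against sheared total RNA, and the 49 others -0.63. In TT-Seq against 4sU-Seq the medians were -0.567 and -0.645. In 4sU-Seq against unsheared total RNA they were -0.386 (22 of 28 lower) and -0.23 (25 of 49 lower). Whether these 2 sets of genes differ was not tested.

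**Figure D3:**
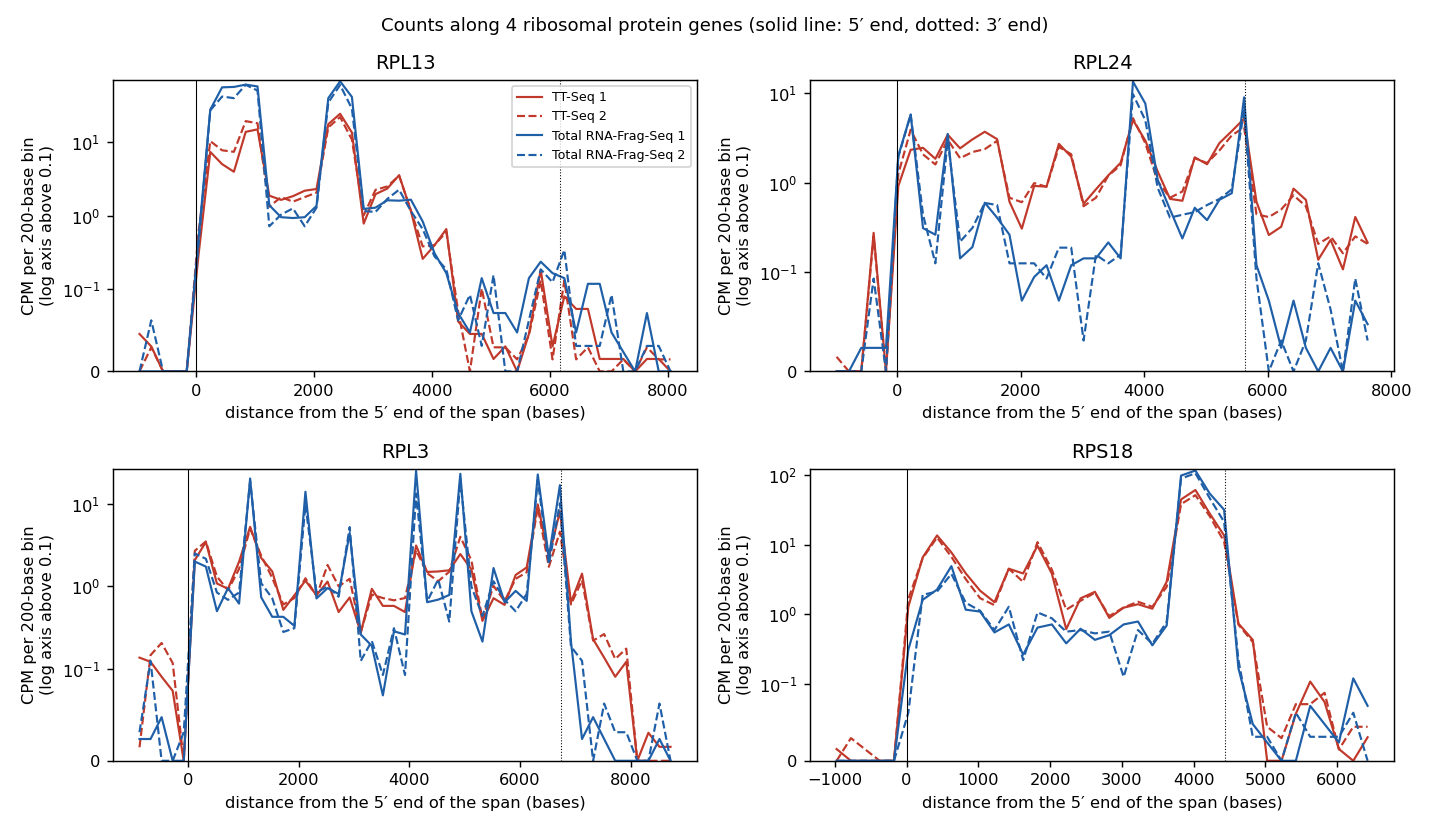
CPM per 200-base bin (vertical axis, logarithmic above 0.1) against the distance from the 5′ end of the span in bases (horizontal axis) for RPL13, RPL24, RPL3 and RPS18, in both TT-Seq (red) and both sheared total RNA libraries (blue); the solid and dotted vertical lines mark the 5′ and 3′ ends. In RPL24 and RPS18 the blue lines fall far below the red ones between the peaks, and in RPL13 both colours fall to low values well before the 3′ end of the annotated span.

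Levels per length of span varied widely among the genes. In TT-Seq the median was 12.3 CPM per kb, and the order ran from RPS29 (2.3 and 2.19), RPL38 (3.48 and 3.66) and RPS19 (3.99 and 4.38) up to RPS16 (48.1 and 42.7), RPS18 (49.3 and 44.1) and RPS2 (53.7 and 55.2). RPS2 did not overlap with RPS18, while RPS18 and RPS16 overlapped. The highest level was 24.3 times the lowest in TT-Seq, 55.4 times in 4sU-Seq, 77.7 times in sheared total RNA and 78.8 times in unsheared total RNA. The upper quartile over the lower quartile was 2.18 in TT-Seq and 3.36 in sheared total RNA, so the genes lay closer together in TT-Seq. These levels divide by the whole span, introns and rarely used ends included, and RPS29 has the longest span, so they do not give an order of mRNA abundance. Across the 77 genes the TT-Seq and sheared total RNA levels per kb had a Spearman rho of 0.873. Both levels are divided by the same span, which the rho therefore shares.

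Pol II in the N20 ChIP was concentrated at the start in most of these genes. Counts per bin within 300 bases of the 5′ end of the span were a median 16.2 and 13.3 times those in the rest of the gene in the N20 ChIP, over 68 genes with at least 20 counts in the body in every ChIP library, and 2.01 and 3.87 times in the S2P ChIP. The ratio was above 2 in 65 of the 68 genes in each N20 library, and in 34 and 52 genes in the S2P libraries. The exceptions in N20 were RPL15 (0.553 and 1.28), RPL36 (1.74 and 1.52) and RPS27A (0 and 0.0625). Other coding genes of the same range of length had median ratios of 3.67 and 4.3 (N20) and 1.73 and 2.41 (S2P) over 7630 genes. Among the 1326 of them whose TT-Seq level per kb was at least that of the lowest ribosomal protein gene, the ratios were 14.1 and 13.4 (N20) and 2.96 and 5.03 (S2P), close to or above those of the ribosomal protein genes. Over the 77 genes the TT-Seq level per kb had a Spearman rho of 0.557 with the N20 level per kb and of 0.27 with the S2P level per kb, again with the span length shared.

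Over whole spans, 17 of the 77 genes were higher and 13 lower in the S2P ChIP than in the N20 ChIP by edgeR's test, with 23.6% of the 29603 genes tested higher and 20.2% lower. The median log2 fold change was -0.01, like that over all genes tested. It was 0.33 in coding genes of the same range of length, with 37.7% higher and 7.42% lower. ChIP counts have no strand and a span can run past the place where RNA counts fall, so span values can include other Pol II. In the bin centred 4643.5 bases into the RPL13 span, TT-Seq held 0.0457 and 0 CPM. The same bin held 39.2 and 24.1 CPM in S2P and 5.78 and 4.42 CPM in N20. RPL27A stood highest, with 176 and 157 CPM in the S2P libraries and 25.9 and 25 CPM in the N20 libraries (2.71, SE 0.14, edgeR adjusted p = 4e-06). RPS19 had 171 and 102 CPM against 23.6 and 33.8 CPM (2.24, SE 0.30). RPL36 had 98.3 and 268 CPM against 42.5 and 37.2 CPM, and with its S2P libraries so far apart it did not pass (2.20, SE 0.58, edgeR adjusted p = 0.056). It did pass with DESeq2 size factors (adjusted p = 0.0495) and by DESeq2's Wald test (adjusted p = 0.00483). Lowest were RPS16, with 5.82 and 5.79 CPM against 16.6 and 13.4 CPM (-1.37, SE 0.21), RPS12 (-1.37, SE 0.33; adjusted p = 0.0644 without N20 replicate 1 and 0.084 without N20 replicate 2) and RPL39 (-1.24, SE 0.23). The counts of calls rested on single ChIP libraries. Lower genes numbered 26 without S2P replicate 2, 3 without N20 replicate 1 and 6 without N20 replicate 2, and higher genes 26 without S2P replicate 2 and 11 without N20 replicate 2.

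Past the 3′ ends most of the genes that could be tested there were higher in TT-Seq than in sheared total RNA, and most were higher in S2P than in N20. In the 3000 bases after the span, on the gene's strand, 60 genes had no other annotated gene in the window and enough counts to be tested. In TT-Seq 50 of them were higher than in sheared total RNA, 4 were lower and 6 did not pass, while 71% of all 9345 windows tested were higher and 8.53% lower. The median log2 fold change was 1.99, against 1.41 over all windows tested and 1.38 for coding genes of the same range of length. Relative to the span, counts per bin in the window were a median 12.9% and 14% in TT-Seq, 4.48% and 4.45% in 4sU-Seq, 1.62% and 2.07% in sheared total RNA and 2.25% and 1.74% in unsheared total RNA, over 63 genes. In 3524 other coding genes of the same range of length they were 28.6% and 28.4% in TT-Seq and 7.08% and 7.5% in sheared total RNA. In the other lists the median log2 fold change downstream was 1.79 for translation factors (24 of 27 higher) and 1.28 for ribosome biogenesis genes (27 of 35). It was 1.35 for mitochondrial ribosomal protein genes (43 of 54) and 1.97 for the 7 tested outside the naming rule (7 higher).

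RPL6 had the largest rise downstream, with 10.1 and 9.86 CPM in TT-Seq, 3.35 and 3.91 CPM in 4sU-Seq, 0.594 and 0.467 CPM in sheared total RNA and 0.682 and 0.886 CPM in unsheared total RNA (log2 fold change of TT-Seq against sheared total RNA 4.21, SE 0.20, edgeR adjusted p = 1.33e-32). RPS7 followed, with 12.4 and 12.3 CPM in TT-Seq against 0.641 and 1.06 CPM (3.90, SE 0.18). RPS4X (3.26), RPS27A (3.24), RPSA (2.98), RPLP1 (2.56) and RPS2 (1.74) were also higher downstream in TT-Seq, while RPLP2 was lower (-0.71, SE 0.13). RPLP0, RPL10 and RPL41 were not among the 60 genes tested there. The other 3 lower genes were RPL13 (-1.02, and -0.815 without TT-Seq replicate 2), RPS15 (-0.63) and RPL30 (-0.52). In RPL13 the window held only 0.381 and 0.279 CPM in TT-Seq against 0.689 and 0.654 CPM in sheared total RNA. Its counts fell to low values well before the annotated 3′ end. The first bin of a window can hold some bases of the span, and spill of the gene's own mRNA counts into the windows was not tested. RPLP2 had 15.8 and 10.9 CPM downstream in TT-Seq against 22.6 and 20.9 CPM in sheared total RNA. These genes were chosen after their values were seen, as the extremes of the list and as genes named above.

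Of 38 genes with a window free of annotated genes on both strands, 32 were higher in the S2P than in the N20 ChIP downstream, with 25.1% of all 12384 windows tested higher and 5.79% lower. None was lower by edgeR, 0 were lower at an unadjusted p under 0.05 and DESeq2 called 0; 1 was called lower by edgeR without S2P replicate 1. The median log2 fold change was 1.88, against 0.18 over all windows tested and 0.54 for coding genes of the same range of length. Among the other lists it was 2.114 for translation factors (16 of 20 higher) and 1.391 for ribosome biogenesis genes (12 of 21). For mitochondrial ribosomal protein genes it was 1.304 (23 of 35), and for the 6 tested outside the naming rule 0.777 (2 higher). A high value here was thus not particular to ribosomal protein genes. RPS9 had 175 and 80.1 CPM downstream in the S2P libraries and 12 and 12.1 CPM in the N20 libraries (log2 fold change 3.41, edgeR adjusted p = 2.08e-06), and RPL3 had 208 and 88.1 CPM against 17.5 and 14.7 CPM. In both genes each S2P library was above both N20 libraries. RPS24 (-0.43) and RPS29 (-0.29), both with long annotated spans, were the lowest and did not pass. Per bin, the window held a median 228% and 114% of the level in the span in the S2P ChIP and 46.6% and 46.7% in the N20 ChIP; in 3862 other coding genes these were 76.8% and 56.1% (S2P) and 54.8% and 57.7% (N20). The S2P libraries thus differed from each other in this ratio in both sets of genes.

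**Figure D4:**
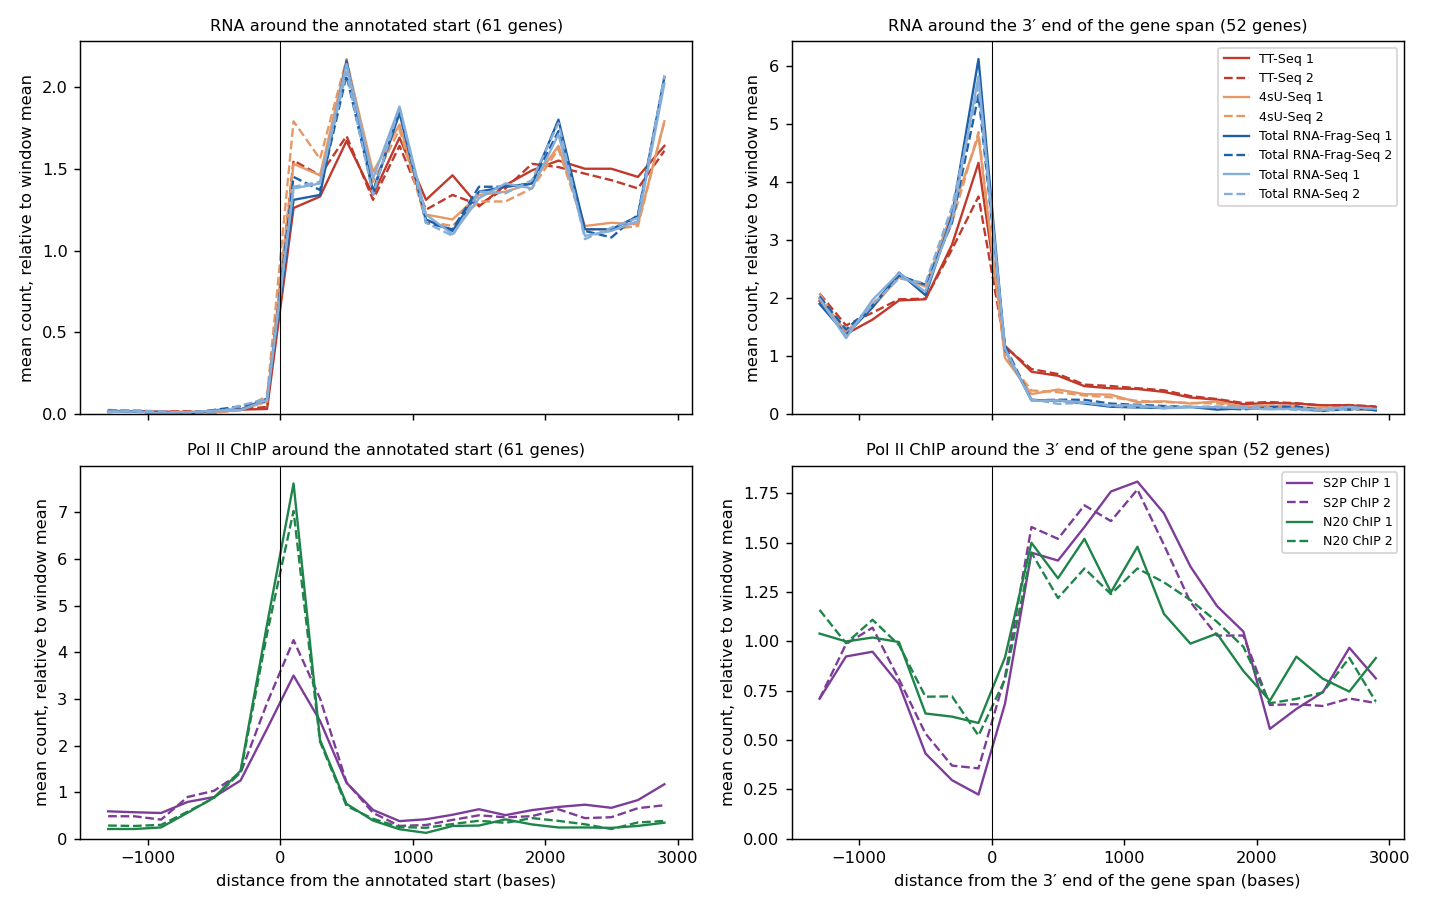
Mean count per 200 bases relative to the mean of the window (vertical axes) against the distance in bases from the annotated start (left, 61 genes) and from the 3′ end of the span (right, 52 genes) of ribosomal protein genes, for 8 RNA libraries (top) and 4 Pol II ChIP libraries (bottom); solid lines are replicate 1 and dashed lines replicate 2. All 4 ChIP lines peak just past the start, at 7.62 and 7.03 in N20 and 3.5 and 4.26 in S2P, and all 4 are higher 700 bases past the 3′ end (1.58 and 1.69 in S2P, 1.52 and 1.37 in N20) than just before it, while the TT-Seq lines stay above the total RNA lines well past the 3′ end. The windows on the right were free of other annotated genes on the gene's strand only. Those on the left were not filtered for other genes. ChIP counts have no strand, so the ChIP lines can include Pol II of neighbouring genes.

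Annotated snoRNAs (59 in all) lie inside 28 of the genes, and annotated genes other than a snoRNA or miRNA overlap 6, on the same strand or with no strand assigned here. Counts cannot be separated where such genes overlap on the strand. RPL17, RPL36A and RPS10 are overlapped by annotated read-through genes (RPL17-C18orf32, RPL36A-HNRNPH2 and RPS10-NUDT3), RPS29 and RPL31 contain a pseudogene or an uncharacterised locus each, and RPL19 overlaps an uncharacterised locus. Leaving out the bins that any such gene touches, snoRNAs and miRNAs included, moved the summed share to 0.492% in TT-Seq and 0.919% in sheared total RNA.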

How the data were processed

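The authors deposited whole-number counts of RNA fragments and ChIP reads in 15441419 bins of 200 bases, by strand for RNA, per the file headers. The submitters' processing notes name STAR 2.3.0, Bowtie2 2.1.0, SAMtools and the builds hg38 and GRCh38. The treatment of multi-mapping reads is a step not given in the sources used here. Bins with their centre in a gene's RefSeq span were summed here on its strand, without strand for ChIP. The strand came from RefSeq's promoter table for 62 ribosomal protein genes, from the authors' transcript units for 13, and for RPL5 and RPL23A from the strand with more RNA counts. That last criterion gave the promoter table's strand in 91.7% of 10151 coding genes. The unit with the largest overlap gave it in 76.5% of 14629 genes. For the 13 genes the unit's strand was kept because the other strand did not hold more RNA counts.

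Counts were tested with edgeR 4.0.16 (R 4.3.3, filterByExpr, TMM, glmQLFit and glmQLFTest) over all 8 RNA or 4 ChIP libraries, with Benjamini-Hochberg adjustment over all genes tested and a threshold of 0.05. CPM used total binned counts and TMM factors. DESeq2 1.42.0 was an alternative. The biological coefficient of variation was 0.059 for RNA spans and 0.163 for ChIP spans. On simulated data the TT-Seq against sheared total RNA fit over 19674 genes recovered 88.1% of 1.5-fold and 92.5% of 2-fold changes, and the ChIP fit over 29301 genes 2.99% and 49.3%. Over downstream windows the RNA fit (9123 windows) recovered 37.3% and 88.1%, and the ChIP fit (11606 windows) 0% and 5.97%. In the simulation most 1.5-fold changes were thus missed in both ChIP fits, as were most 2-fold changes over ChIP windows. The simulation changed only a small part of the genes or windows and gave all the same spread. The real fits called a much larger part, so these recoveries need not hold there. Intervals were not computed.

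The ribosomal protein genes and the comparison lists were chosen with earlier results of these data known. Genes named with values were the 6 highest and 6 lowest in TT-Seq against sheared total RNA and in 4sU-Seq against unsheared total RNA, the 3 highest and 3 lowest in the other comparisons over spans and in TT-Seq level per kb, and 9 set genes (RPLP0, RPLP1, RPLP2, RPSA, RPS27A, RPS4X, RPL41, RPL10 and RPS2); from each other list the 2 highest and 2 lowest were named. Some genes that this rule would name are not reported here. Promoter sequences are RefSeq's, GRCh38.p14. A planned comparison of intron bins was not made because exon positions were not used here, and the authors' deposited exon, intron and rate tables were not used.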

Additional observations from a re-analysis of the deposited data

Results flagged for a closer look

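The log2 fold change on purifying labelled RNA was lower under shearing in 35 ribosomal protein genes and higher in 6. These calls are by the interaction term of the edgeR fit at an adjusted p under 0.05. Among all genes tested 23.1% were lower and 17.8% higher by that term. Among coding genes of the same range of length 32.7% were lower and 14.5% higher. The opposite strand, which no comparison used, held 30.5% of the TT-Seq counts of both strands over RPS29 and 11.6% over RPL28, against a median of 0.589% over the 77 genes. In sheared total RNA the opposite strand held 64.6% over RPS29 and 13.3% over RPL28.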

How the results depend on the processing

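Of 318 alternative values for the comparisons, 278 stayed within 1.5 times the main count or within 1 SD of the main median or share. With no scaling beyond total counts, the median for TT-Seq against 4sU-Seq was -0.68, 59 genes were lower in sheared total RNA than in unsheared total RNA, and S2P against N20 gave 25 lower genes and a median of -0.29. In 4sU-Seq against unsheared total RNA, higher genes numbered 3 by DESeq2's Wald test and 3 with every bin that overlaps the span, which also moved the median to -0.35 there and to -0.10 for S2P against N20. With pseudogenes, an alternative chosen after seeing the data, higher genes numbered 5, 2, 1 and 3 in TT-Seq against sheared total RNA, 4sU-Seq against unsheared total RNA, TT-Seq against 4sU-Seq and the interaction; the median for TT-Seq against 4sU-Seq was -0.70 and the summed share was 0.698% (TT-Seq), 1.32% (4sU-Seq), 1.36% (sheared total RNA) and 1.75% (unsheared total RNA). Leaving out bins of other genes gave shares of 0.492% (TT-Seq), 0.892% (4sU-Seq) and 1.18% (unsheared total RNA), and every overlapping bin 1.34% (unsheared total RNA). A downstream window of 1000 bases gave a median of 2.09. Leaving out 1 library at a time gave 7 to 9 higher and 48 to 63 lower genes in TT-Seq against sheared total RNA (median -0.76 to -0.53), 3 to 5 and 30 to 41 in 4sU-Seq against unsheared total RNA (median -0.33 to -0.25), 3 to 4 and 50 to 56 in TT-Seq against 4sU-Seq (median -0.67 to -0.52), 0 higher and 10 to 71 lower in sheared total RNA against unsheared total RNA (median -0.39 to -0.13), 5 to 14 and 32 to 45 in the interaction (median -0.45 to -0.16), and 11 to 26 and 3 to 26 for S2P against N20 (median -0.095 to 0.056). Downstream it gave 48 to 50 higher and 3 to 4 lower in TT-Seq (median 1.91 to 2.09) and 27 to 33 higher and 0 to 1 lower in S2P (median 1.41 to 2.16). A lone library was assumed to vary like the others of its fit.

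Of 1471 alternative values for named genes, 39 lost and 27 gained the threshold and 27 changed sign; the cause was not tested. In 4sU-Seq against unsheared total RNA, RPL10 took -0.008 with no scaling beyond total counts, -0.005 with DESeq2 size factors, with its Wald test and with pseudogenes, -0.019 without bins of other genes and -0.018 to 0.026 when 1 library was left out. RPL39 took -0.069 in that comparison and -0.081 in TT-Seq against 4sU-Seq with every overlapping bin. With pseudogenes it took -0.865 in TT-Seq against sheared total RNA, -0.269 in 4sU-Seq against unsheared total RNA, -0.697 in TT-Seq against 4sU-Seq and -0.596 in the interaction, while RPL36A took -0.04 in 4sU-Seq against unsheared total RNA. With 1 library left out, values in sheared against unsheared total RNA ran from -0.332 to 0.05 for RPL35A, -0.263 to 0.104 for RPLP0, -0.273 to 0.118 for RPL22 and -0.532 to 0.052 for RPS27A, which ran from -0.589 to 0.034 in the interaction. For S2P against N20, RPS2 took -0.121 with no scaling beyond total counts and -0.05 with every overlapping bin, and RPSA 0.014 without a filter and -0.166 to 0.142 with 1 library left out. Downstream in S2P against N20, such values ran from -0.038 to 0.604 for RPS20 and from -2.087 to 0.197 for RPS24.

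Same-numbered libraries shared little deviation from their group means, which cannot show whether they came from the same cultures. The correlation of same-numbered deviations was 0.157 for TT-Seq with 4sU-Seq. It was -0.0945 to 0.0627 for the other pairs of RNA groups and -0.0478 for the ChIP groups. With the replicate block, 55 genes were lower and 8 higher in TT-Seq against sheared total RNA, 48 lower in sheared total RNA against unsheared total RNA and 17 lower for S2P against N20, and no count of calls moved by over 1.5 times.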
